A study of Mus musculus with 6 samples.

Results

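The SMAD feedback genes and the activin and BMP ligands and inhibitors of the heart were followed in mice that lack dystrophin and utrophin. The set was chosen by gene symbol from the deposited matrix. It holds Smad6 (ENSMUSG00000036867), Smad7 (ENSMUSG00000025880), Skil (ENSMUSG00000027660), Pmepa1 (ENSMUSG00000038400), Id1 (ENSMUSG00000042745), Inhba (ENSMUSG00000041324), Inhbb (ENSMUSG00000037035), Bmp4 (ENSMUSG00000021835), Grem1 (ENSMUSG00000074934) and Fst (ENSMUSG00000021765). All 10 were found among the 50385 genes of the matrix, and 9 of them, all but Grem1, were among the 20472 genes with enough counts to be tested. RNA came from whole hearts of male Mdx/Utrn dKO mice that were 2 to 3 months old when dosing began. In 3 libraries the mice had been given Setanaxib, which inhibits the NADPH oxidase Nox4, by mouth each day for 12 weeks at 60 mg/kg. In the other 3 libraries the mice had been given the vehicle, corn oil, for as long. All 6 libraries share the double knockout, no wild-type heart is among them, and the study asks what part Nox4 plays in the cardiomyopathy of these mice.

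Bone morphogenetic proteins (BMPs), activins and transforming growth factor beta (TGF-beta) are secreted dimers that bind paired receptor kinases, and these phosphorylate SMAD transcription factors. In broad terms BMPs act through the SMADs encoded by Smad1, Smad5 and Smad9, and activins and TGF-beta through those encoded by Smad2 and Smad3. The SMADs switch on their own inhibitors, among them Smad6, Smad7, Skil and Pmepa1, and follistatin and gremlin catch the ligands outside the cell. In the heart these ligands are known for their effects on fibroblast activation, valve and vessel formation and muscle growth.

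The matrix holds 110803307 to 142693848 estimated counts per setanaxib library and 121014814 to 154003318 per vehicle library, so that 1 CPM (counts scaled to a common library size, here with TMM factors, from the trimmed mean of M values) rests on 121 to 146 estimated counts. Myh6, the cardiac myosin heavy chain, stood at 16357 to 20761 CPM with setanaxib and 16260 to 19820 CPM with vehicle. Setanaxib replicate 3 stands apart in its tissue markers. The 4 atrial markers in the matrix sum to 3129 CPM there, against 68.8 and 113 CPM in the other setanaxib libraries and 125 to 589 CPM with vehicle. Outside that library the sum is mostly Nppa, at 64.9 and 105 CPM with setanaxib and 121 to 523 CPM with vehicle. Myl7, another atrial marker, stood at 0.605, 1.33 and 637 CPM in setanaxib replicates 1, 2 and 3. In vehicle replicates 1, 2 and 3 it stood at 23.3, 0.103 and 21.4 CPM, so the vehicle libraries differ in it too. The 5 fat cell markers of setanaxib replicate 3 sum to 64.3 CPM, against 0 and 0.205 CPM in the other setanaxib libraries and 0 to 2.17 CPM with vehicle. Its 5 markers of the outer heart lining sum to 34.05 CPM, against 2.87 and 7.18 CPM in the other setanaxib libraries and 4.94 to 6.75 CPM with vehicle, although Krt19 of that list was listed at 0 in every library. Fold changes that move by over 1.5 times without this library are given without it as well. The 8 endothelial markers sum to 720 to 844 CPM with setanaxib and 859 to 959 CPM with vehicle, the 8 macrophage markers to 186 to 235 CPM with setanaxib and 299 to 386 CPM with vehicle, and the 8 fibroblast markers to 1344 to 2471 CPM with setanaxib and 1488 to 2162 CPM with vehicle. The fibroblast sum rests mostly on Gsn, at 852 to 1676 CPM with setanaxib and 770 to 1176 CPM with vehicle. Over all tested genes, 48.4% had a log2 fold change below 0, and 9.46% were lower without overlap between the groups. Taken gene by gene, all 8 macrophage markers were below 0 (median -0.68), and all 8 were without overlap. Of the 8 fibroblast markers, 7 were below 0 (median -0.42), 4 of them without overlap. All 8 smooth muscle and pericyte markers were below 0 (median -0.31), 4 without overlap. Of the 6 lymphatic markers, 5 were below 0 (median -0.47), 3 without overlap. Of the 8 endothelial markers, 7 were below 0 (median -0.16), but only Kdr did not overlap. Kdr stood at 84.0 to 177 CPM with setanaxib and 184 to 220 CPM with vehicle. Genes of the mitochondrial genome took 30.0%, 25.5% and 20.5% of the counts in setanaxib replicates 1, 2 and 3, and 25.98%, 26.8% and 23.5% in vehicle replicates 1, 2 and 3. In whole-heart RNA, fewer cells of a type and less RNA per cell cannot be told apart.

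Promoter sequence is shown for Smad6, an inhibitor gene that SMADs themselves switch on, and for Inhba and Inhbb, the activin subunit genes whose levels are set side by side further on. The 250 bases upstream of each annotated start are from RefSeq on GRCm38.p6, which is not the build of the deposited counts, and read 5′ to 3′ on the gene's strand. They cover chr9:64022060-64022309 on the minus strand for Smad6, chr13:16011601-16011850 on the plus strand for Inhba and chr1:119422249-119422498 on the minus strand for Inhbb. Capitals mark the SMAD-binding core GTCT, which reads AGAC on the opposite strand.
Smad6: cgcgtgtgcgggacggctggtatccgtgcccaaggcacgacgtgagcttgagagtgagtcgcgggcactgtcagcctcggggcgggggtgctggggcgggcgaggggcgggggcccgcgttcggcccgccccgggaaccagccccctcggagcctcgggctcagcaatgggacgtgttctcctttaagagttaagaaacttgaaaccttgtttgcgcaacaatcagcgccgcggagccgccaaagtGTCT
Inhba: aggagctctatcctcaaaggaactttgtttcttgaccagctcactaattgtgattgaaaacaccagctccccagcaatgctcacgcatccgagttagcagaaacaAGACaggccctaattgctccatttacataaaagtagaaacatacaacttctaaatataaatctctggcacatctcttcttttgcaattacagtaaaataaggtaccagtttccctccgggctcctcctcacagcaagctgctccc
Inhbb: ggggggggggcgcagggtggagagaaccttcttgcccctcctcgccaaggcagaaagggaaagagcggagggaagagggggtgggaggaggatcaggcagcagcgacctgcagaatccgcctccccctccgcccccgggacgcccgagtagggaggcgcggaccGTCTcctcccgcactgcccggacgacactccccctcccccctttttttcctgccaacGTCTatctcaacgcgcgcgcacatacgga
The core occurs 1 time in the Smad6 and Inhba windows and 2 times in the Inhbb window, and 82.9% of the 32851 promoter windows of that length in the RefSeq table hold it on either strand. The Inhba window is 43.2% G and C, and the Inhbb and Smad6 windows are 68.0% and 66.8%. The full palindrome GTCTAGAC, which contains the core on both strands, and the GC-rich SMAD motif GGCGCC were searched as well on both strands. Neither is in these 3 windows or that of Bmp4, which holds the core 1 time. The Grem1 window holds the core 4 times and GGCGCC 1 time. Of all windows, 0.167% hold GTCTAGAC and 9.59% hold GGCGCC.

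Pmepa1 and Skil were lower in every setanaxib library than in every vehicle library. The other tested members overlapped between the groups, the feedback genes Smad6 and Smad7 and the BMP target Id1 among them. By edgeR's quasi-likelihood test with Benjamini-Hochberg adjustment over all tested genes, 0 of the 9 tested members passed the threshold of 0.05, where 0.00488% of all tested genes did. DESeq2 called 0 members (2.29% of its genes) and limma-voom also called 0 members (0% of genes). At an unadjusted p under 0.05 edgeR had 1 member, Pmepa1, against 8.39% of all tested genes. Of the 9, 7 had a log2 fold change below 0, against 48.4% of all tested genes, and the median was -0.30 for the members and 0.01 for all tested genes. The groups did not overlap for 2 members, Pmepa1 and Skil, both lower, where 17.6% of all tested genes did not overlap and 9.46% did not overlap and were lower. A count of 2 in 9 is near that background.

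**Figure D1:**
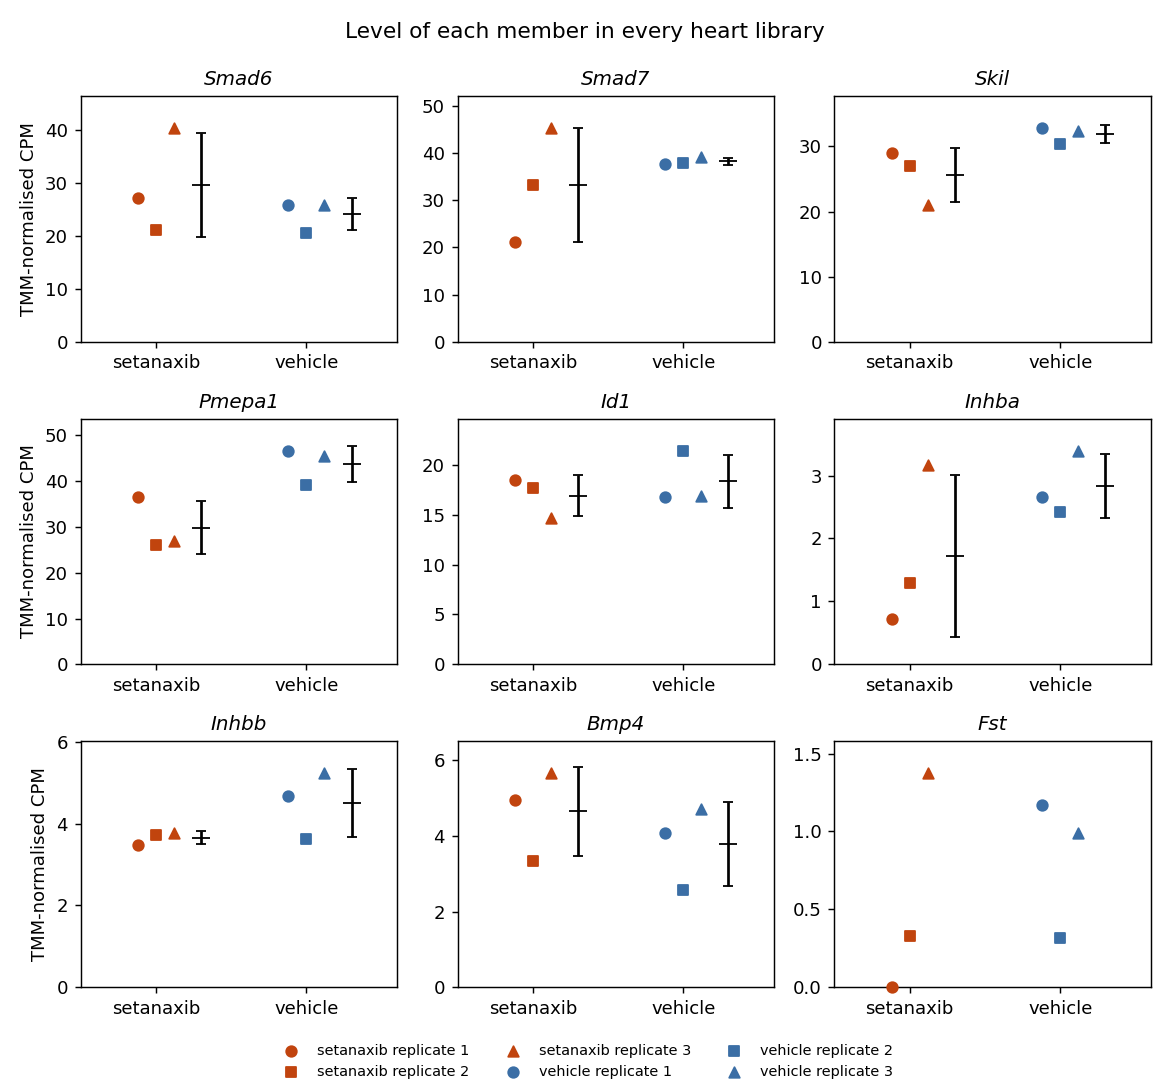
Level of the 9 tested members in TMM-normalised CPM (y axis, from 0) in 3 setanaxib and 3 vehicle heart libraries, with the mean and SD (n = 3) beside the points except for Fst, which was listed at 0 in setanaxib replicate 1. Pmepa1 and Skil are lower in every setanaxib library than in every vehicle library, and the other 7 genes overlap.

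Pmepa1 encodes a membrane protein that TGF-beta induces and that holds back receptor-activated SMADs. It stood at 36.6, 26.1 and 26.9 CPM in setanaxib replicates 1, 2 and 3, against 46.7, 39.2 and 45.5 CPM in vehicle replicates 1, 2 and 3. Every setanaxib library was below every vehicle library, with setanaxib replicate 1 nearest to the vehicle range. The mean was 29.8 ± 5.82 CPM with setanaxib and 43.8 ± 4.005 CPM with vehicle (SD, n = 3 each). The log2 fold change was -0.55 (SE 0.16, 95% interval -0.94 to -0.17), a level 0.682 times that of vehicle, and it missed the threshold (edgeR adjusted p = 0.457; DESeq2 adjusted p = 0.0827). By unadjusted p, 2.58% of tested genes ranked ahead of it. Without any 1 library its log2 fold change stayed between -0.73 and -0.47. The summed endothelial and macrophage markers were lower in the same setanaxib libraries, though of the endothelial markers only Kdr did not overlap by itself. All 8 macrophage markers were lower without overlap by themselves, where 9.46% of all tested genes were. So were 4 of 8 fibroblast markers, 4 of 8 smooth muscle and pericyte markers and 3 of 6 lymphatic markers. The part of these markers in the Pmepa1 values was not tested.

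Skil encodes SnoN, a co-repressor that binds SMADs on DNA and that TGF-beta and activin first degrade and then induce again. Its level was 29.0, 27.0 and 21.0 CPM in setanaxib replicates 1, 2 and 3, against 32.9, 30.3 and 32.5 CPM in vehicle replicates 1, 2 and 3. The groups did not overlap, but setanaxib replicate 1 and vehicle replicate 2 lay close together. The mean was 25.7 ± 4.15 CPM with setanaxib and 31.9 ± 1.37 CPM with vehicle (SD, n = 3 each), a log2 fold change of -0.31 (SE 0.14, 95% interval -0.64 to 0.02, edgeR adjusted p = 0.622). Without setanaxib replicate 3, the library with the atrial and fat cell markers, it was -0.18.

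The inhibitory SMADs went different ways, and neither passed the test. Smad7 encodes the inhibitor that blocks TGF-beta, activin and BMP receptors alike. It stood at 21.1, 33.1 and 45.3 CPM in setanaxib replicates 1, 2 and 3, against 37.7, 38.0 and 39.0 CPM in vehicle replicates 1, 2 and 3. The vehicle libraries were nearly equal, and the setanaxib libraries lay on both sides of them. The highest setanaxib library was 2.15 times the lowest, and the same ratio was 1.04 with vehicle. In the setanaxib libraries the mitochondrial share ran the other way, highest in replicate 1 and lowest in replicate 3, and its part in the Smad7, Inhba and Fst values was not tested. Over the 18530 tested genes above 0 in every library, the median of this ratio was 1.47 within the setanaxib group and 1.22 within the vehicle group. The mean of Smad7 was 33.2 ± 12.1 CPM with setanaxib and 38.2 ± 0.717 CPM with vehicle (SD, n = 3 each), with a log2 fold change of -0.21 (SE 0.26, 95% interval -0.84 to 0.43, edgeR adjusted p = 0.894). The sign rests on single libraries, at 0.031 without setanaxib replicate 1 and -0.49 without setanaxib replicate 3.

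Smad6, which acts mainly on BMP signals, stood at 27.1, 21.1 and 40.3 CPM in setanaxib replicates 1, 2 and 3, against 25.8, 20.5 and 25.8 CPM in vehicle replicates 1, 2 and 3. Only setanaxib replicate 3 lay well above the vehicle range. The mean was 29.5 ± 9.85 CPM with setanaxib and 24.0 ± 3.02 CPM with vehicle (SD, n = 3 each), and the log2 fold change was 0.30 (SE 0.25, 95% interval -0.31 to 0.90, edgeR adjusted p = 0.817). It was 0.0091 without setanaxib replicate 3 and 0.49 without setanaxib replicate 2.

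Id1 encodes a helix-loop-helix protein that cannot bind DNA by itself and is a classical early target of BMP signals. Its level was 18.5, 17.6 and 14.6 CPM in setanaxib replicates 1, 2 and 3, against 16.7, 21.4 and 16.9 CPM in vehicle replicates 1, 2 and 3. The groups overlapped, with vehicle replicate 2 highest and setanaxib replicate 3 lowest. The log2 fold change was -0.12 (SE 0.15, 95% interval -0.47 to 0.24, edgeR adjusted p = 0.890), the smallest in size among the 9, and it was 0.0087 without vehicle replicate 2, -0.019 without setanaxib replicate 3 and -0.19 without setanaxib replicate 1. The interval reaches to both sides of 0, so a higher or a lower Id1 level with setanaxib was not detectable at this spread.

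**Figure D2:**
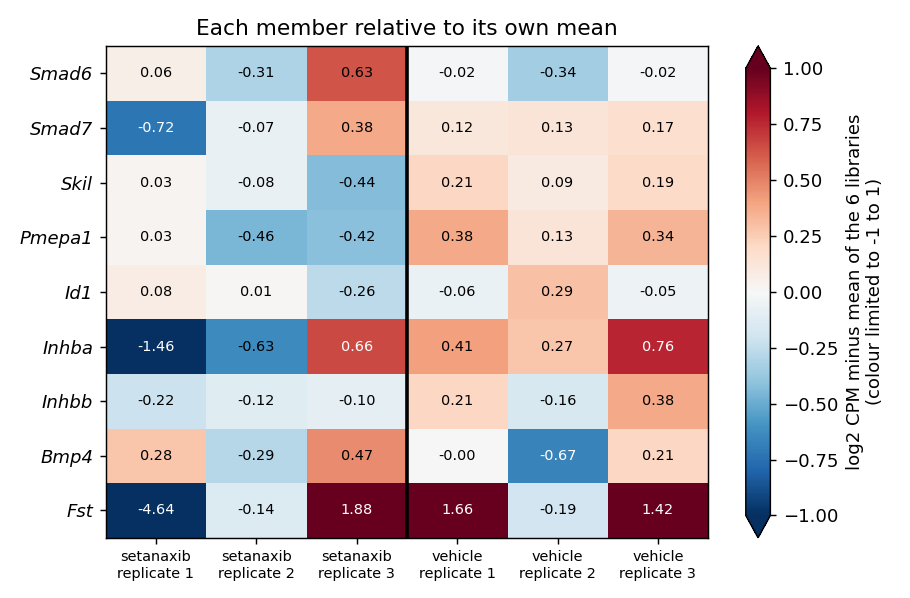
Level of each tested member in each library as log2 CPM minus the gene's own mean over the 6 libraries, with setanaxib left of the black line and vehicle right of it. Smad7, Inhba and Fst are each low in setanaxib replicate 1 and high in setanaxib replicate 3, at -0.72 and 0.38 for Smad7, -1.46 and 0.66 for Inhba and -4.64 and 1.88 for Fst.

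Among the ligands, the activin subunit genes averaged lower with setanaxib and Bmp4 averaged higher, each with overlapping groups. Inhba encodes the activin beta A subunit, which pairs with itself to form activin A. It stood at 0.716, 1.29 and 3.16 CPM in setanaxib replicates 1, 2 and 3, against 2.66, 2.42 and 3.40 CPM in vehicle replicates 1, 2 and 3. Setanaxib replicates 1 and 2 were below every vehicle library, while setanaxib replicate 3 lay inside the vehicle range. These values rest on 91, 169 and 417 estimated counts with setanaxib and on 323, 354 and 462 with vehicle. The mean was 1.72 ± 1.28 CPM with setanaxib and 2.83 ± 0.507 CPM with vehicle (SD, n = 3 each), and the log2 fold change was -0.71 (SE 0.54, 95% interval -2.02 to 0.59, edgeR adjusted p = 0.791). Without setanaxib replicate 3 it was -1.49, and without setanaxib replicate 1 it was -0.35. The part of the atrial, fat cell and heart lining signal of setanaxib replicate 3 in its Inhba level was not tested.

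Inhbb encodes the beta B subunit, which forms activin B. It stood at 3.48, 3.72 and 3.78 CPM in setanaxib replicates 1, 2 and 3, against 4.67, 3.62 and 5.24 CPM in vehicle replicates 1, 2 and 3. The setanaxib libraries lay close together, with a highest-to-lowest ratio of 1.09, against 4.42 for Inhba in the same libraries, and vehicle replicate 2 fell among them. The mean was 3.66 ± 0.161 CPM with setanaxib and 4.51 ± 0.822 CPM with vehicle (SD, n = 3 each). The log2 fold change was -0.30 (SE 0.18, 95% interval -0.74 to 0.13, edgeR adjusted p = 0.715), and it was -0.18 without vehicle replicate 3.

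Bmp4, a BMP of vessel walls and of the developing heart, stood at 4.95, 3.35 and 5.66 CPM in setanaxib replicates 1, 2 and 3, against 4.08, 2.57 and 4.73 CPM in vehicle replicates 1, 2 and 3. The ranges overlapped over most of their width. The mean was 4.65 ± 1.18 CPM with setanaxib and 3.79 ± 1.11 CPM with vehicle (SD, n = 3 each), with a log2 fold change of 0.30 (SE 0.30, 95% interval -0.43 to 1.02, edgeR adjusted p = 0.861). It was 0.079 without vehicle replicate 2 and 0.13 without setanaxib replicate 3, and 0.48 without setanaxib replicate 2 or vehicle replicate 3. Exons of Bmp4 overlap those of Gm15217 on the opposite strand in the GENCODE annotation, and whether reads were counted by strand is not stated, so part of these counts may belong to that gene.

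The secreted inhibitors among the members, Fst and Grem1, were low or at 0. Fst encodes follistatin, which binds activins nearly irreversibly. It was listed at 0 in setanaxib replicate 1 and stood at 0.327 and 1.37 CPM in setanaxib replicates 2 and 3, against 1.17, 0.315 and 0.992 CPM in vehicle replicates 1, 2 and 3. These values rest on 0, 43 and 181 estimated counts with setanaxib and on 142, 46 and 135 with vehicle. Both groups hold libraries near 0.3 CPM and near or above 1 CPM. Those near or above 1 CPM are the libraries with the most Myl7, an atrial marker, though the sizes differ. In setanaxib replicate 3 and vehicle replicates 1 and 3, Myl7 stood at 637, 23.3 and 21.4 CPM and Fst at 1.37, 1.17 and 0.992 CPM. The part of atrial signal in the Fst values was not tested. The 0 is uncertain, and whether it is an absence or a dropped estimate was not tested. In setanaxib replicate 1, 53 genes were at 0 that held at least 100 estimated counts in each other library. In the other libraries this number was 0 to 15. Fst is not among the 53, as it holds 43 and 46 estimated counts in setanaxib replicate 2 and vehicle replicate 2. The fitted log2 fold change came to -0.54 (SE 1.43, edgeR adjusted p = 0.957) and depends on that library and on the tool. It was 0.038 without setanaxib replicate 1, -2.33 without setanaxib replicate 3 and -2.48 in limma-voom. Fst also shares exon positions with Gm47040, an antisense gene.

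Grem1, which encodes the BMP antagonist gremlin, was listed at 0 in all 6 libraries and could not be compared. If each 0 is a count, 3 counts would correspond to 0.0205 to 0.0247 CPM per library, for counting error only. These estimates may be at 0 for other reasons, which was not tested. The promoter table used here holds Grem1, Bmp4, Smad6, Inhba and Inhbb.

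**Figure D3:**
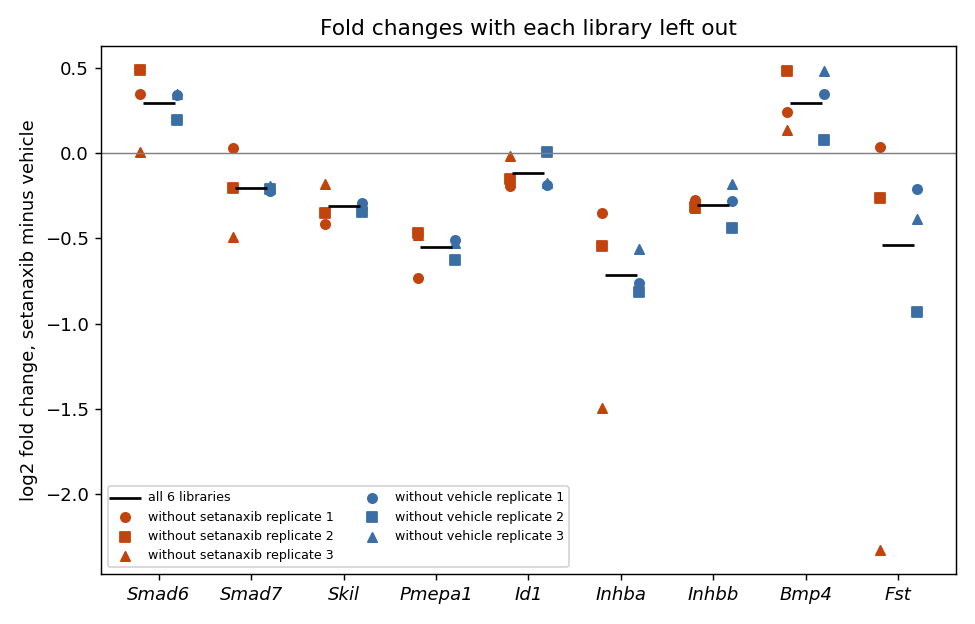
Log2 fold change of each tested member (y axis, setanaxib minus vehicle) with all 6 libraries (black bars) and with each library left out (points, coloured by the group of the library left out). Pmepa1, Skil, Inhba and Inhbb stay below 0 and Smad6 and Bmp4 above 0 throughout, while Smad7, Fst and Id1 come to lie above 0 in 1 fit each.

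The rest of the pathway was read from lists of ligands, receptors, inhibitors, SMADs and response genes, and no gene of these lists passed edgeR over all genes. Of 22 other ligands listed, 9 were tested, and of these 4 were lower and 5 higher, with a median log2 fold change of 0.08. Gdf6, a BMP-type ligand, stood at 0.716, 1.23 and 0.728 CPM in setanaxib replicates 1, 2 and 3, against 1.95, 1.90 and 1.69 CPM in vehicle replicates 1, 2 and 3. The groups did not overlap (log2 fold change -1.05, SE 0.28, edgeR adjusted p = 0.434). Inha, the alpha subunit that turns an activin subunit into inhibin, stood at 5.21, 5.10 and 5.29 CPM with setanaxib, against 4.83, 3.50 and 4.79 CPM with vehicle. Its groups did not overlap either (log2 fold change 0.25, SE 0.17, edgeR adjusted p = 0.761), and the log2 fold change was 0.11 without vehicle replicate 2. Gdf10 had a log2 fold change of 0.69 that turned to -0.66 without setanaxib replicate 3.

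Of 14 receptors and co-receptors listed, 12 were tested, and of these 6 were lower and 6 higher, with a median log2 fold change of -0.01. DESeq2 called 2 of them, where it called 2.29% of all its genes. Acvrl1 encodes ALK1, the receptor of endothelial cells for circulating BMPs. It stood at 17.5, 23.2 and 19.5 CPM in setanaxib replicates 1, 2 and 3, against 28.9, 29.7 and 30.6 CPM in vehicle replicates 1, 2 and 3. Every setanaxib library was lower (log2 fold change -0.57, SE 0.12, edgeR adjusted p = 0.363, DESeq2 adjusted p = 0.00322). The summed endothelial markers were lower in the same libraries, at 720 to 844 CPM against 859 to 959 CPM, though only Kdr among them did not overlap. Their part in the Acvrl1 values was not tested. Tgfbr3 encodes betaglycan, a co-receptor that presents TGF-beta and lets inhibin block activin receptors. It stood at 105, 94.0 and 131 CPM with setanaxib, against 76.4, 65.4 and 77.3 CPM with vehicle, without overlap (log2 fold change 0.59, SE 0.15, edgeR adjusted p = 0.403, DESeq2 adjusted p = 0.0148). Rgmb, a BMP co-receptor, was the third gene by p and was higher without overlap. Its log2 fold change was 0.22 (SE 0.10, edgeR adjusted p = 0.644), and 0.13 without setanaxib replicate 3.

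Of 20 other extracellular inhibitors and modulators listed, 15 were tested, and of these 8 were lower and 7 higher (median -0.01). DESeq2 called 1 of the 15, against 2.29% of all its genes. Fstl1 and Fstl3 are relatives of follistatin, and Fstl3 binds activins as follistatin does. Fstl1 stood at 60.0, 73.7 and 88.3 CPM in setanaxib replicates 1, 2 and 3, against 124, 103 and 129 CPM in vehicle replicates 1, 2 and 3 (log2 fold change -0.68, SE 0.17, edgeR adjusted p = 0.401, DESeq2 adjusted p = 0.00912). Fstl3 stood at 4.43, 5.80 and 6.21 CPM with setanaxib, against 8.07, 9.88 and 7.81 CPM with vehicle (log2 fold change -0.65, SE 0.18, edgeR adjusted p = 0.443, DESeq2 adjusted p = 0.0567). For both, every setanaxib library lay below the vehicle range. Wfikkn2, which binds myostatin and its close relatives, was higher in all 3 (log2 fold change 0.39, SE 0.12, edgeR adjusted p = 0.473). The BMP ligand Bmp10 and the inhibitor Nog were not analysed here.

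The SMADs that carry the signal had small log2 fold changes. Of 6, 2 were lower and 4 higher, with log2 fold changes between -0.15 and 0.37, and 0 had an unadjusted p under 0.05. Those of Smad4, the shared partner of all SMADs, Smad2 and Smad1 were 0.20 (SE 0.09), 0.19 (SE 0.13) and 0.21 (SE 0.16). Without setanaxib replicate 1 those of Smad4 and Smad1 were 0.12 and 0.015, without setanaxib replicate 2 that of Smad1 was 0.33, and without setanaxib replicate 3 that of Smad2 was 0.060. Of 15 tested regulators of SMADs inside the cell, 7 were lower and 8 higher, all between -0.24 and 0.28. Smurf2 and Smurf1 encode ubiquitin ligases that Smad7 brings to the receptors, and Rnf111 encodes the ligase that degrades Skil and Smad7 proteins. Their log2 fold changes were -0.24 (SE 0.08), -0.20 (SE 0.09) and -0.18 (SE 0.09), with Smurf2 and Rnf111 not overlapping between the groups. Smad4 did not overlap either, at 49.5 to 58.3 CPM with setanaxib and 44.6 to 46.5 CPM with vehicle. Over all tested genes, 17.6% did not overlap. In the GENCODE annotation, exons of Acvrl1, Fstl3 and Ltbp2 overlap genes on the opposite strand (Gm16031, Prss57 and D030025P21Rik), and exons of Tgfbr3 and Smurf2 overlap Gm43422 and Gm27322 on the same strand, which makes these values uncertain.

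Response genes other than the members were read as BMP and as TGF-beta or activin lists. These share genes with the lists above: Bambi with the inhibitors, Smad9 with the SMADs and Tgif1 with the SMAD regulators. Of 13 BMP response genes listed, 10 were tested, and of these 5 were lower and 5 higher with a median log2 fold change of -0.02. The genes of lowest p were Msx1 at -0.66 (SE 0.22, edgeR adjusted p = 0.508), Bambi, a decoy receptor, at -0.67 (SE 0.26, edgeR adjusted p = 0.569), and Hey2 at 0.40 (SE 0.26), which was 0.25 without setanaxib replicate 2 or vehicle replicate 2. Msx1 and Bambi were lower without overlap between the groups. Of 15 tested TGF-beta or activin response genes, 14 were lower, with a median of -0.39, and DESeq2 called 4, against 2.29% of all its genes. Many of them are matrix genes that were listed with their lower levels in these libraries known, so their direction adds no separate evidence. Postn, Ltbp2 and Cilp, all proteins of the fibroblast matrix, were lower by log2 fold changes of -1.48 for Postn (SE 0.24), -2.07 for Ltbp2 (SE 0.48) and -1.94 for Cilp (SE 0.52), with edgeR adjusted p between 0.268 and 0.431. The difference between these lists was not tested.

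**Figure D4:**
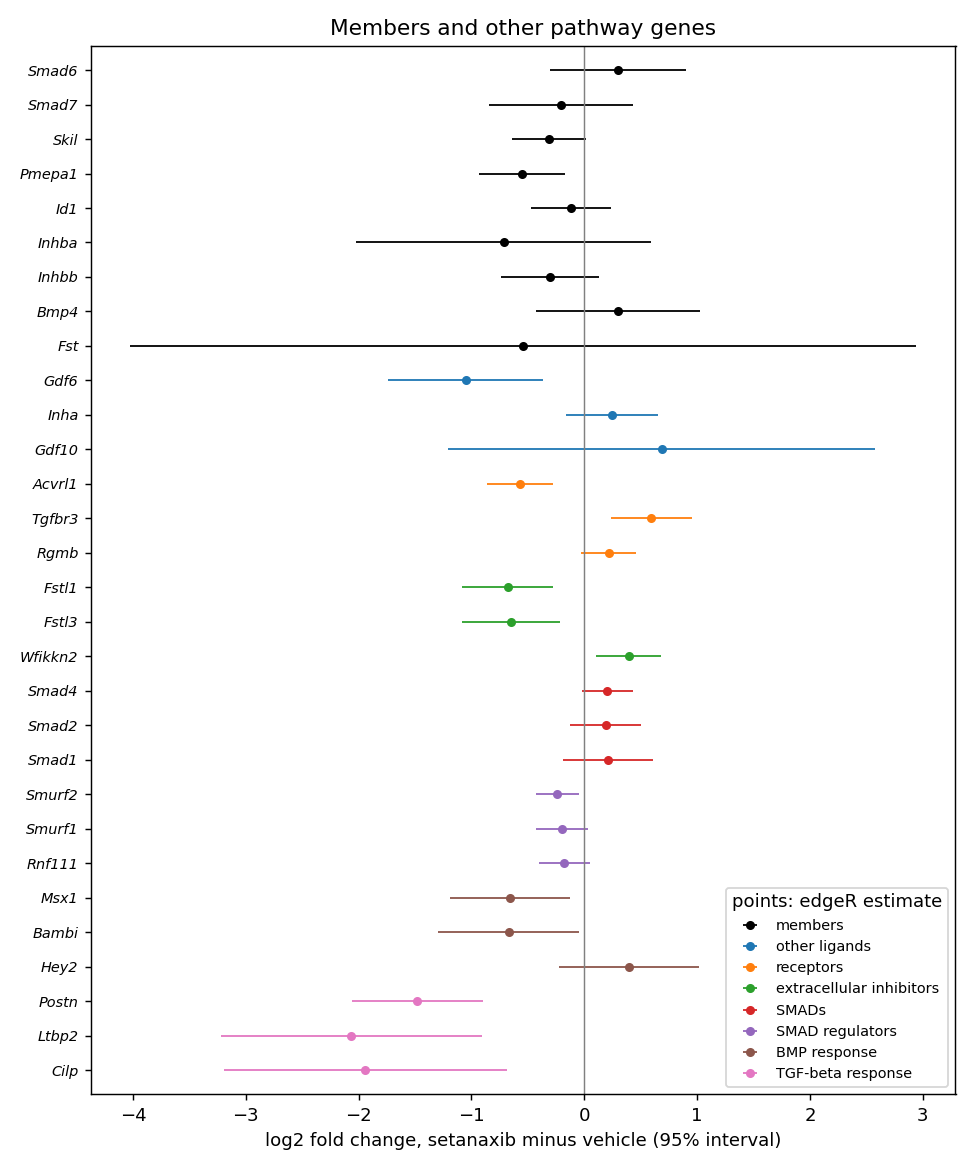
Log2 fold change (x axis, setanaxib minus vehicle) with its 95% interval for the 9 tested members and for the 3 genes of lowest p in each of 7 pathway lists. The interval of Pmepa1, -0.94 to -0.17, is the only member's that leaves out 0, and that of Fst is the widest.

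The genes whose library profile lay nearest to each member were taken by the root mean square difference of log2 CPM, centred over the 6 libraries, among 12497 named genes (12498 for Fst) of at least 1 CPM on average. Nearest to Pmepa1 were Rom1, Hpgds and Itgb7, at 0.107, 0.107 and 0.115 log2 units. Nearest to Skil were Smoc2, Itgb1bp1 and Nmral1 (0.0355 to 0.0463), and nearest to Smad7 were Arhgap6, Cd55 and Cyp4f16 (0.0338 to 0.0541). The matches of Smad6 were Agbl3, Gsg1l and Itpr2 (0.0703 to 0.0853), and those of Id1 were Nutf2-ps2, a pseudogene that can share reads with Nutf2, Rab11a and Cct5 (0.0351 to 0.0386). Among the genes nearest to Inhba were Dlg4 and Rarb (0.159 and 0.177). Inhbb lay nearest to Hgh1, Zfp993 and Susd2 (0.0647 to 0.0693), and Bmp4 to Acrbp, Lgi3 and BC060293 (0.0825 to 0.126). For Fst even the nearest genes, Itih2, Chrm3 and Irs3, were 0.460 to 0.553 log2 units away, and all 3 were also at 0 in setanaxib replicate 1. No member was among the 3 nearest genes of another.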

How the data were processed

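Whole-heart RNA was sequenced in 3 setanaxib and 3 vehicle libraries of Mdx/Utrn dKO mice. The authors deposited estimated counts per gene, all whole numbers, with no scaling between libraries. The submitters' processing notes list STAR 2.5.4b, featureCounts 2.0.1, FastQC 0.11.9 and DESeq2 1.42.0 and the genome GRCm39 without their roles. Per the file headers, the names of rows and columns look like those of StringTie's count script. The values point to estimates, since a library holds 30 to 40 genes at 1 and 157 to 188 at 2. They were whole already, so the rounding usual for expected counts changed nothing.

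The design had assumed raw counts, and the same tests were kept. In R 4.3.3, edgeR 4.0.16 kept 20472 genes (filterByExpr, minimum count 10), scaled them by TMM and fitted the robust quasi-likelihood model of setanaxib minus vehicle over all of them, two-sided, at a threshold of 0.05 after Benjamini-Hochberg adjustment. Standard errors and 95% intervals come from its F statistic. limma 3.58.1 (voom), DESeq2 1.42.0, other scalings and filters and the omission of each library were alternatives. The code was tested on simulated data. All members are described; of each other pathway list, the 3 genes of lowest p are named, and 1 gene near a member in profile is not reported here. Members and lists were chosen with earlier results of these data known. Replicates are numbered in record order, which pairs no samples. Each library's label carries a number of its own after the genotype, but no label states that the libraries are separate animals. The p-values thus measure no more than how these libraries vary. RefSeq and GENCODE M21 tables on GRCm38 served for names, overlaps and promoter sequence only, and 5 of the 10 members matched the promoter table.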

Additional observations from a re-analysis of the deposited data

How the results depend on the processing

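Over the alternatives run, 0 members passed the threshold in any of them. The median log2 fold change of the members stayed below 0, between -0.35 and -0.19 when each library was left out, and 5 to 7 of the 9 members were lower. The number of genes called over the whole matrix was 1 in edgeR, 504 in DESeq2, 0 in limma-voom and 0 to 1 when each library was left out, with 0 without vehicle replicate 1, 2 or 3. With each library left out, the log2 fold change of Smad7 ranged from -0.49 (without setanaxib replicate 3) to 0.031 (without setanaxib replicate 1), that of Fst from -2.33 to 0.038 (the same libraries), that of Id1 from -0.19 (without setanaxib replicate 1) to 0.0087 (without vehicle replicate 2), and that of Gdf10 from -0.66 (without setanaxib replicate 3) to 1.11 (without setanaxib replicate 2). Of the genes in the pathway lists, DESeq2 called Acvrl1, Tgfbr3, Fstl1, Postn, Ltbp2, Cilp and Col1a2, the last named after its values were seen, and edgeR with all libraries called none of these. The causes of these differences were not tested. Leaving out a library leaves 2 in its group, whose spread is pooled over genes and groups. The shallowest tested members were Fst and Inhba, with 0 to 181 and 91 to 462 estimated counts per library. No paired analysis was possible because the replicate numbers follow record order and the labels pair no samples.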
